A study of Mus musculus with 18 samples.

Results

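The experiment described here is the early response of Wbp7+/- (HET) macrophages to lipopolysaccharide (LPS). The 3 arrays of HET cells given LPS for 2 h were set against the 3 arrays of untreated HET cells, which are 6 of the 18 arrays of the series. Arrays were chosen by their titles and by no measured value, and the difference was taken as 2 h minus untreated between arrays of the same replicate number. The other arrays, 3 per group, come from HET cells after 4 h of LPS and from Wbp7-/- (KO) cells untreated, after 2 h and after 4 h. LPS was used at 10 ug/ml throughout.

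All cells were primary macrophages grown from mouse bone marrow (BMDM) and taken on the seventh day of differentiation. The mice had a mixed C57BL/6 and 129/Ola background, and the medium was conditioned by L929 cells, a source of the macrophage growth factor M-CSF. Both HET groups, treated and untreated, carry 1 lost copy of Wbp7, now named Kmt2b, whose protein methylates histone H3 on lysine 4. No wild-type group is analysed here, so the response is that of cells with this lost copy. The labels do not say whether replicates are separate mice or separate cultures, so the spread behind the p-values may be technical. In the main fit that spread is what is left after group and replicate number are fitted. It is pooled over all arrays of the series, KO included. Arrays of one genotype with the same replicate number are called a culture below, although the labels do not state it.

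LPS, a component of the wall of Gram-negative bacteria, is handed by Cd14 to the receptor Tlr4 with its partner Ly96 (MD-2). Signals through the adaptor Myd88 switch on NF-kB and MAP kinases and with them early cytokine and chemokine genes. Signals through the adaptor Ticam1 (TRIF) activate Irf3, which induces interferon beta, and secreted interferon then switches on antiviral genes through the JAK and STAT pathway. Many of the induced genes encode inhibitors of these same pathways.

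Signal was the authors' log2 value per gene, and a difference of 1 on this scale is 2-fold. A gene is said to rise or fall where its p from limma, paired by culture and adjusted by Benjamini-Hochberg for the 19475 genes tested, was under 0.05. By their markers the 6 arrays held macrophage RNA: all 10 macrophage markers, Csf1r, Adgre1 and Cd68 among them, lay above the array's median in every array. Of 12 neutrophil markers, Ly6g, Retnlg and Cxcr2 were below the lower quartile in all 6 arrays, while the granule genes Ngp, Elane and Mmp8 were above the median in all 6. Of 12 lymphocyte markers, 6 were below the lower quartile in all 6 arrays, Cd3g, Cd79a and Ms4a1 among them, and the B cell marker Cd79b was above the median in all 6, with sums of 79.47 to 81.2 at 2 h, against 79.45 to 80.7 in untreated cells. Of 8 mast cell and basophil markers, 5 were below the lower quartile in all 6, Cpa3, Mcpt4 and Ms4a2 among them. The summed log2 signal of the 12 neutrophil markers was 96.33 to 102.44 at 2 h, against 92.14 to 100.2 in untreated cells, and S100a8, S100a9 and Camp rose by less than 2-fold (0 markers rose without the pairing). Of 10 dendritic cell markers, 5 rose by less than 2-fold (0 to 7 under the other settings tried), with sums of 73.04 to 76.85 at 2 h, against 71.18 to 74.62 in untreated cells. The summed log2 signal of 12 stromal and osteoclast markers was 97.32 to 97.71 at 2 h, against 93.7 to 95.01 in untreated cells, and Pdgfrb and Acp5 rose (1 to 5 markers under the other settings). Lum was below the lower quartile in all 6 arrays, while Col1a1, Col1a2, Acta2 and Acp5 were above the median in all 6. The part of these markers in the results was not tested. In bulk RNA, fewer cells of a type and less RNA per cell cannot be told apart.

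Culture 1 stood apart from cultures 2 and 3 before and after LPS. Relative to the mean of the other 2 arrays of its group, the median of its 40 cell cycle genes was -2.50 log2 units at 2 h and -2.69 in untreated cells. The median of its 10 MHC class II genes was 0.595 above that mean at 2 h and 0.621 above it in untreated cells. Over the genes that changed 2-fold or more, the median size of the response was 1.77 log2 units in culture 1, 1.22 in culture 2 and 1.29 in culture 3. These genes were chosen by the mean of the same responses, so the sizes draw on the values that chose them. Without that choice, 717, 455 and 461 genes were higher by over 1 log2 unit in cultures 1, 2 and 3. In the same order, 861, 210 and 314 were lower by over 1.

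At 2 h, 1895 genes had risen, which is 9.73% of those tested, and 3516 had fallen, which is 18.1%. The median of all genes was a log2 difference of 0.025. Many changes were small: 519 genes (2.66%) rose and 329 (1.69%) fell by 2-fold or more. Each had the same sign in all 3 cultures, which the paired test that chose these genes favours. At 4-fold or more the counts were 173 higher and 17 lower, and at 16-fold or more 19 higher and 0 lower. Most of the large changes were thus increases. Of the genes that passed, 35.0% were higher, and with arrays centred on their medians 47.0% were (2677 higher and 3024 lower). The treated and untreated arrays did not overlap for 5205 genes, 26.7% of all. Without the pairing 3033 genes passed, 1083 higher and 1950 lower, all of them also among the 5411 of the paired test, and 479 and 303 did so at 2-fold. Without culture 1 the counts were 1348 and 2511, and at 2-fold 440 and 228.

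The highest increases were in secreted inflammatory proteins. Il1a, which encodes the alarm cytokine interleukin-1 alpha, had signals of 13.88, 13.42 and 13.39 at 2 h in cultures 1, 2 and 3, against 6.46, 5.95 and 6.24 in untreated cells. Il6, which encodes interleukin-6, a driver of the acute-phase response, had 12.98, 11.59 and 12.74 at 2 h, against 5.095, 5.22 and 5.04 in untreated cells. In both genes the untreated arrays lay below the lower quartile of their array and the treated arrays far above them, with no overlap. The differences, as means over 3 cultures, were 7.35 ± 0.16 for Il1a and 7.32 ± 0.25 for Il6 (log2, ± limma's SE). These are 163-fold and 160.0-fold (limma adjusted p = 1.17e-11 and 5.87e-10). The SE of a difference, here and below, is pooled by limma over all arrays of the series, KO and later HET arrays included. It is not the SE of the 3 HET responses alone, which for Il6 were 7.89, 6.37 and 7.71. A value at the low end of the array can carry background signal, so the size of these folds is uncertain.

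Il1b, which encodes interleukin-1 beta, the substrate of the inflammasome, had 13.91, 13.62 and 13.37 at 2 h, against 8.57, 7.34 and 7.07 in untreated cells, a log2 difference of 5.97 ± 0.19. Its untreated signal was highest in culture 1, and the treated arrays stayed close together. Il12b, the p40 subunit shared by interleukins 12 and 23, had 13.12, 12.98 and 12.83 at 2 h and 7.24, 7.29 and 7.701 in untreated cells, a difference of 5.57 ± 0.33. Both passed with adjusted p of 4.34e-10 (Il1b) and 8.5e-08 (Il12b). Tnf, the archetypal early cytokine, was already bright: it had 14.13, 14.09 and 14.01 at 2 h, against 12.396, 11.79 and 11.86 in untreated cells. Its groups did not overlap and its change was smaller, at 2.06 ± 0.12 or 4.18-fold (adjusted p = 6.15e-08). The treated Tnf values lie close to the highest signal of any gene on these arrays, which was 14.57 to 14.64. Il10, the main anti-inflammatory cytokine of macrophages, varied widely between cultures, with 12.12, 11.004 and 8.96 at 2 h, against 7.73, 7.49 and 7.32 in untreated cells. All 3 cultures rose, culture 1 by 4.39 and culture 3 by 1.64 (mean 3.18 ± 0.44, adjusted p = 0.00014).

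Of the 32 cytokine genes measured, 24 rose and 0 fell (1 fell without culture 2), with a median difference of 1.57, against 0.025 for all genes. The rising members included Tnfsf15, a TNF family ligand of T cells (3.99 ± 0.17), and Edn1, which encodes the vasoconstrictor endothelin-1 (4.76 ± 0.29). The 8 that did not pass included the growth factor Vegfa, at 10.66, 8.64 and 8.497 at 2 h and 11.94, 8.43 and 8.89 in untreated cells, where culture 1 was far above the others in both. Without the pairing 20 rose.

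**Figure D1:**
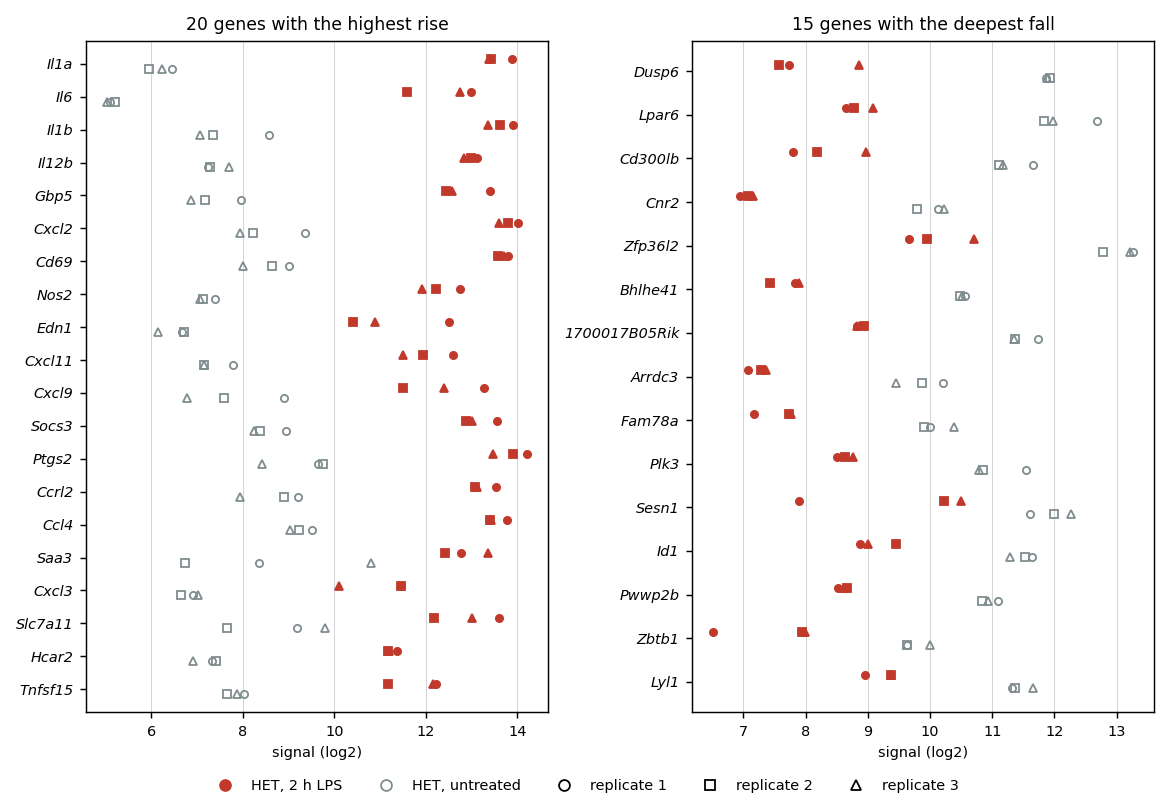
Log2 signal of each HET array for the 20 genes with the highest increase (left) and the 15 with the deepest decrease (right), filled red symbols for 2 h of LPS and open grey symbols for untreated cells, with a symbol shape per replicate. Treated and untreated arrays are apart in every gene shown, by the most for Il1a and Il6, and Saa3 has the widest spread of untreated values (6.75 to 10.79).

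Among CXC chemokines, neutrophil attractants and the ligands of the receptor Cxcr3 rose most. Cxcl2, a neutrophil attractant, had 14.002, 13.79 and 13.6 at 2 h, against 9.37, 8.22 and 7.95 in untreated cells, a difference of 5.29 ± 0.26 (adjusted p = 1.44e-08). Its relatives Cxcl3 and Cxcl1 rose by 4.14 ± 0.41 and 3.11 ± 0.197. The interferon-induced Cxcr3 ligands, which attract T cells, rose by 4.64 ± 0.17 (Cxcl11), 4.63 ± 0.29 (Cxcl9) and 2.298 ± 0.19 (Cxcl10). Cxcl10 was bright before LPS: it had 14.53, 14.48 and 14.504 at 2 h, within the top of the signal range, against 12.75, 12.13 and 11.74 in untreated cells. Of 15 CXC and CX3C genes 8 rose and 0 fell, with a median of 0.723. The 7 others, which included Cxcl14 (11.49, 10.84 and 9.38 at 2 h and 11.81, 11.15 and 9.68 untreated), did not pass.

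Of 18 CC chemokines, 10 rose and 1 fell, with a median of 0.596 (0 fell without culture 1). Ccl4, an attractant of monocytes and T cells, had 13.78, 13.39 and 13.42 at 2 h, against 9.51, 9.23 and 9.04 in untreated cells, a difference of 4.27 ± 0.089 (adjusted p = 1.17e-11). Ccl5, which also attracts T cells, rose by 3.51 ± 0.25. The Ccr4 ligands Ccl22 and Ccl17 differed more between cultures. Ccl17 had 10.41, 12.19 and 9.05 at 2 h and 7.94, 7.703 and 7.395 in untreated cells, highest after LPS in culture 2. It rose by 2.87 ± 0.58 (adjusted p = 0.00222), and did not pass without the pairing (adjusted p = 0.0531).

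Of the 6 genes with the highest increase, Il1b and Il12b had no match to the searched motifs, described below, in the 250 bases before the start. The promoters of the other 4 are shown because they hold matches to NF-kB, AP-1 or ISRE motifs. Each is the 250 bases before the gene's start in RefSeq (GRCm38.p6), 5′ to 3′ on the strand of the gene, with matches in capitals. They lie at chr2:129309973-129310222, minus strand (Il1a), chr5:30012864-30013113, plus strand (Il6), chr3:142496684-142496933, plus strand (Gbp5) and chr5:90903649-90903898, plus strand (Cxcl2).
Il1a: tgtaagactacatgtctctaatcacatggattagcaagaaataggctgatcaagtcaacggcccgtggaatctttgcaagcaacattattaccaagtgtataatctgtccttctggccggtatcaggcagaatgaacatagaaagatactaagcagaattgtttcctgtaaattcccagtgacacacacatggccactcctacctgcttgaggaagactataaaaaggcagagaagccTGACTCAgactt
Il6: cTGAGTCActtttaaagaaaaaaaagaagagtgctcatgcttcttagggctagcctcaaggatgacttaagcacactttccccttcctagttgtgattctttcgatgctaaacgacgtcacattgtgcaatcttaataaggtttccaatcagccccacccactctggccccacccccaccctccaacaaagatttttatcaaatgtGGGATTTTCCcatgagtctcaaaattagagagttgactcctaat
Gbp5: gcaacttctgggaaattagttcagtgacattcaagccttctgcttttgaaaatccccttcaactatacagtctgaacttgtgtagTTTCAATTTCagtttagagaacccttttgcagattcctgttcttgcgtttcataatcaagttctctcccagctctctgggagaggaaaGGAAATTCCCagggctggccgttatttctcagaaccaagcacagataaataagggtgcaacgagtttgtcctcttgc
Cxcl2: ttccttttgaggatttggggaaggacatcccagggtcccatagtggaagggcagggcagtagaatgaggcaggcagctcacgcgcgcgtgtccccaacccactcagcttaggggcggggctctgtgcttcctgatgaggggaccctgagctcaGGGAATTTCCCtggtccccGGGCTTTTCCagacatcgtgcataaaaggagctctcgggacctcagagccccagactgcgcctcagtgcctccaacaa
The capitals mark an AP-1 match (TGANTCA) 12 to 6 bases before the start of Il1a, and an NF-kB match (GGGNNNTTCC) 44 to 35 bases before the start of Il6 beside an AP-1 match 249 to 243 bases before it. In Gbp5 they mark an NF-kB match 77 to 68 bases before the start and an ISRE match (GAAANNGAAA, the element bound by interferon-activated factors) 165 to 156 bases before it. Cxcl2 has overlapping NF-kB matches at 97 to 88 and 96 to 87 bases and another at 78 to 69 bases before its start. Both strands were searched in the 12837 genes tested that have 1 listed start, of which 338 rose and 199 fell by 2-fold or more. The NF-kB letters occurred in 11.8% of the genes that rose, 7.04% of those that fell and 4.54% of all. The ISRE letters occurred in 9.47% of the genes that rose, 0.503% of those that fell and 3.01% of all, and the AP-1 letters in 9.17%, 2.01% and 6.05%. The CRE letters (TGACGTCA) occurred in 2.66%, 3.52% and 2.12%. These are shares of letters in a window and no test was made of them.

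The receptor genes moved in both directions. Tlr4 itself fell: it had 9.22, 9.03 and 9.92 at 2 h, against 10.54, 10.87 and 10.38 in untreated cells, a difference of -1.21 ± 0.25 (adjusted p = 0.00262). All 3 treated arrays were below all 3 untreated ones, and culture 3 fell least. Cd14 had 13.92, 13.57 and 13.504 at 2 h, against 13.03, 12.29 and 12.31 in untreated cells, again without overlap, and rose by 1.12 ± 0.089 (adjusted p = 1.38e-06). Ly96 had 12.55, 12.302 and 12.49 at 2 h and 12.44, 12.29 and 12.37 in untreated cells, with overlapping groups and a difference of 0.077 ± 0.14 (adjusted p = 0.716). The receptors for bacterial lipoproteins Tlr2 and Tlr1 rose by 1.801 ± 0.196 and 1.07 ± 0.102. In all, 5 of the 10 genes of the receptor list rose and 1 fell (4 and 2 without culture 2). Cd180, a Tlr4 relative, was at -0.24 ± 0.087 (adjusted p = 0.0561).

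Downstream of the receptors, 11 of 22 measured adaptor and kinase genes rose and 2 fell, with a median of 0.327 (1 fell without culture 1 or without culture 3). The largest increase was in Traf1, an adaptor of TNF receptors (3.58 ± 0.11), followed by the kinases Map3k8, which activates the MEK and ERK branch (2.26 ± 0.197), Ikbke, which phosphorylates Irf3 (1.72 ± 0.15), and Irak2, a kinase of the Myd88 complex (1.67 ± 0.17). Irak1, another kinase of that complex, did not pass (-0.27 ± 0.1, adjusted p = 0.0668).

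The NF-kB list rose almost as a whole: 9 of 10 genes were higher and 0 lower, 8 of them by 2-fold or more, with a median of 1.97. Nfkbia, the inhibitor that holds NF-kB in the cytoplasm and is itself an NF-kB target, had 13.85, 13.74 and 13.52 at 2 h, against 11.97, 11.398 and 11.29 in untreated cells. Its groups were well apart, by 2.15 ± 0.101 (adjusted p = 8.84e-09). The nuclear cofactor Nfkbiz, which Il6 induction needs, rose by 3.26 ± 0.18, the inhibitor Nfkbie by 2.798 ± 0.11 and the cofactor Bcl3 by 2.23 ± 0.23. Nfkbid, the remaining member, was at 10.801, 10.84 and 9.94 at 2 h and 10.81, 10.03 and 10.28 in untreated cells (adjusted p = 0.598).

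Immediate-early transcription factors split. Of 29 AP-1, EGR, ATF and related genes 13 rose and 3 fell, or 44.8% higher and 10.3% lower against 9.73% and 18.1% of all genes. The 3 that fell were Fos, Myc and Jun, the last (named after its value was seen) by 1.71 on the log2 scale. Fos, a subunit of AP-1, had 9.04, 8.36 and 9.17 at 2 h, against 11.31, 10.62 and 10.43 in untreated cells, with no overlap, and fell by 1.94 on the log2 scale (SE 0.19, adjusted p = 9.26e-06). Myc, which promotes growth and ribosome synthesis, had 9.96, 11.002 and 10.51 at 2 h, against 12.59, 12.26 and 12.19 in untreated cells, and fell by 1.86 on the log2 scale (SE 0.31, adjusted p = 0.000523). In contrast Egr2, a zinc finger factor of the EGR family, had 10.79, 11.78 and 10.38 at 2 h, against 9.14, 7.89 and 7.64 in untreated cells, and rose in every culture (2.76 ± 0.32, adjusted p = 3.13e-05). The orphan nuclear receptor Nr4a3 rose by 2.05 ± 0.36, and Egr1 did not pass (0.36 ± 0.19, adjusted p = 0.172).

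Interferon genes were a narrow set at 2 h. Ifnb1, which encodes interferon beta, had 9.81, 8.78 and 8.68 at 2 h, against 6.45, 6.04 and 6.13 in untreated cells. The untreated arrays were all below the lower quartile and the treated ones were not, and Ifnb1 rose by 2.88 ± 0.23 (adjusted p = 1.63e-06). Of the 11 interferon and receptor genes measured, Ifngr1, a subunit of the interferon gamma receptor, was the only other to rise (0.34 ± 0.089, adjusted p = 0.0115), and it did not pass without culture 2. Ifna4 had 6.75, 6.202 and 5.87 at 2 h and 6.15, 6.07 and 5.79 untreated, below the lower quartile in all 6 arrays. With quantile normalization 4 of the 11 rose.

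Genes that respond to interferon had moved as a group by then. Of 50 antiviral genes measured 48 rose and 0 fell, 30 of them by 2-fold or more, with a median of 1.23. The GTPase Mx2, which blocks virus replication, had 12.92, 12.03 and 12.24 at 2 h, against 9.34, 8.36 and 7.75 in untreated cells, a difference of 3.91 ± 0.21 (adjusted p = 3.07e-08). Its untreated level was highest in culture 1, as was the antiviral list's as a whole, with a median 0.507 above the mean of the other 2 untreated arrays. The DNA sensor family member Ifi205 rose by 3.48 ± 0.43, Mx1 by 3.08 ± 0.27 and Oasl1, of the oligoadenylate synthetase family, by 2.62 ± 0.22. Lgals3bp, with 14.097, 13.86 and 13.75 at 2 h and 13.99, 13.58 and 13.83 untreated, did not pass. Without the pairing 36 of the 50 rose. The Mx, Oas, Slfn and Gbp genes have close relatives, whose signals a probe set may not fully separate.

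All 8 measured guanylate-binding proteins and immunity-related GTPases rose (6 without the pairing), with a median of 2.44. These proteins attack the vacuoles of intracellular pathogens. Gbp5 had 13.403, 12.44 and 12.57 at 2 h, against 7.97, 7.18 and 6.88 in untreated cells, a difference of 5.46 ± 0.13 and 44.1-fold (adjusted p = 1.79e-11). Iigp1, another member, had 11.69, 8.87 and 10.28 at 2 h and 7.82, 6.82 and 6.42 untreated, and its increase ranged over the cultures by 2.05 to 3.87. Gbp3 and Gbp7 rose by 3.15 ± 0.196 and 2.56 ± 0.17.

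Among their regulators 7 of 14 IRF and STAT genes rose and 0 fell (4 and 0 without the pairing, 6 and 1 without culture 1, 7 and 2 without culture 2). Irf1, which drives GBP and antigen-presentation genes, had 13.38, 12.77 and 12.85 at 2 h, against 10.32, 10.23 and 9.71 in untreated cells, a difference of 2.91 ± 0.097 (adjusted p = 5.41e-10). Irf7, the amplifier of interferon alpha genes, had 13.39, 12.59 and 12.77 at 2 h and 12.84, 11.71 and 11.49 untreated, and the untreated signal of culture 1 lay above the treated signals of cultures 2 and 3. Its increase of 0.902 ± 0.21 passed with the pairing (adjusted p = 0.00519) and not without it (adjusted p = 0.11) or without culture 3. Irf8, a lineage factor of macrophages, did not pass (-0.41 ± 0.17).

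Inhibitors of the response were among the strongest increases and also held the deepest decrease. Of 36 such genes 23 rose and 4 fell, with a median of 1.13. These are 63.9% higher and 11.1% lower, against 9.73% and 18.1% of all genes. Socs3, which shuts off signals of the interleukin-6 receptor, had 13.55, 12.89 and 13.003 at 2 h, against 8.95, 8.37 and 8.25 in untreated cells, a difference of 4.62 ± 0.103 (adjusted p = 1.17e-11). Its relative Cish rose by 3.81 ± 0.22, and the ubiquitin-editing enzyme Tnfaip3 (A20), an NF-kB inhibitor, by 3.67 ± 0.15. Dusp6, a phosphatase that inactivates ERK, went the other way: it had 7.73, 7.57 and 8.85 at 2 h, against 11.87, 11.93 and 11.88 in untreated cells. The untreated values were nearly equal and the treated ones spread, with culture 3 the least lowered. The difference was -3.84 ± 0.33, or 14.3-fold lower (adjusted p = 2.47e-06). Zfp36l2, which promotes decay of AU-rich mRNAs, fell by 2.98 on the log2 scale (SE 0.17). Trib1, a pseudokinase, did not pass (-0.502 ± 0.24).

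**Figure D2:**
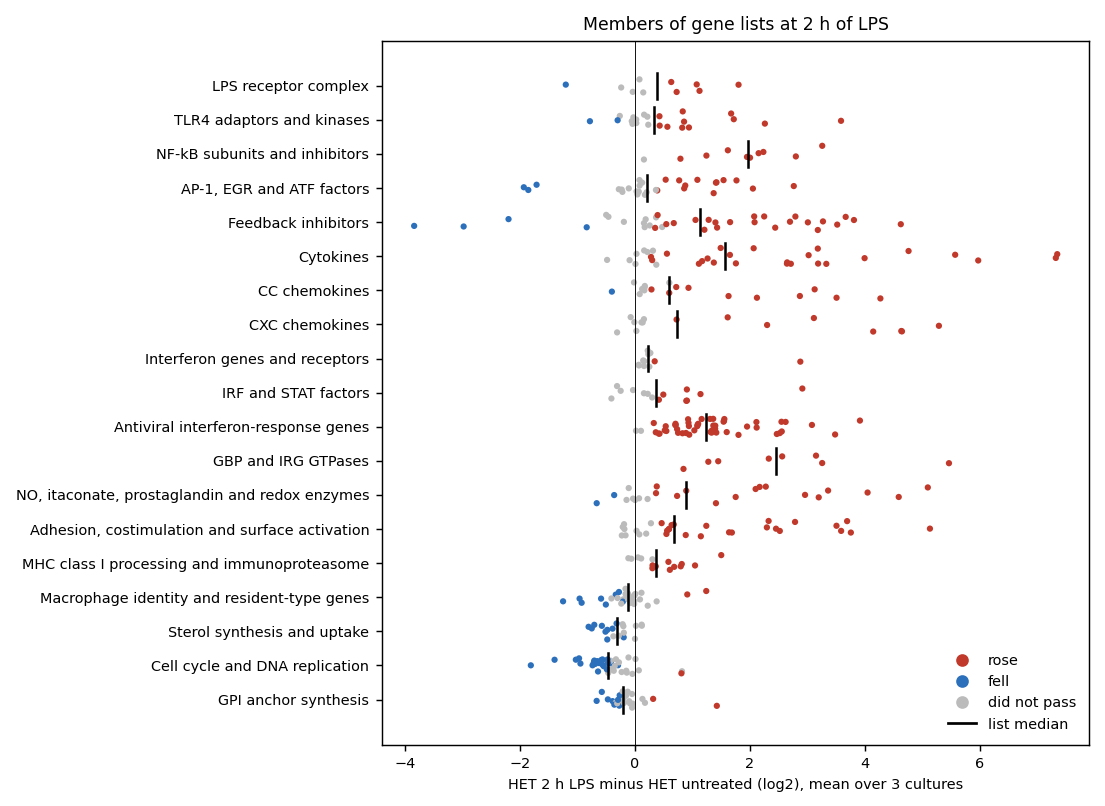
Log2 difference between HET cells after 2 h of LPS and untreated HET cells for each measured member of 19 gene lists, as a mean over 3 cultures, with red for genes that rose, blue for those that fell, grey for those that did not pass and a black bar at the list's median. Members of the NF-kB list (median 1.97) and the GBP list (2.44) lie to the right of 0, and most members of the cell cycle list (median -0.474) lie to the left.

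Enzymes that make inflammatory mediators rose. Nos2, the inducible nitric oxide synthase, had 12.74, 12.23 and 11.91 at 2 h, against 7.39, 7.13 and 7.07 in untreated cells, a difference of 5.09 ± 0.18 (adjusted p = 6.6e-10). Ptgs2 (COX-2), which makes prostaglandin precursors, rose by 4.59 ± 0.16, the cystine importer Slc7a11 by 4.05 ± 0.26 and Acod1, which makes itaconate, by 3.36 ± 0.28. The list of 23 such genes had 15 higher and 2 lower, and 0 were lower without the pairing, without culture 1 or without culture 2. Its shares were 65.2% higher and 8.7% lower, against 9.73% and 18.1% of all genes. Also among the highest increases were Hcar2, a receptor for niacin and ketone bodies (4.03 ± 0.104), and Saa3, an acute-phase protein. Saa3 had 12.76, 12.41 and 13.35 at 2 h and 8.36, 6.75 and 10.79 untreated, so that its increase of 4.21 ± 0.64 was larger in culture 2 (5.66) than in culture 3 (2.56).

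Surface proteins of activation followed. Of 31 adhesion, costimulation and activation genes 22 rose and 0 fell (1 fell without culture 3). The early activation antigen Cd69 had 13.79, 13.57 and 13.695 at 2 h, against 9.02, 8.64 and 8.001 in untreated cells, a difference of 5.13 ± 0.16 (adjusted p = 2.28e-10). Cd40, the receptor for T cell help, rose by 3.76 ± 0.15, Cd83 by 3.69 ± 0.19 and the scavenger receptor Olr1 by 3.59 ± 0.11. Among inflammasome and cell death genes 12 of 21 rose and 4 fell (2 fell without the pairing or without any 1 culture). These are 57.1% higher and 19.0% lower, against 9.73% and 18.1% of all genes, so the decreases were near the share of all genes. The death receptor Fas rose by 3.28 ± 0.21, Casp4, which senses LPS inside the cell and is named caspase-11 in mice, by 2.47 ± 0.21, and the caspase-8 inhibitor Cflar by 2.44 ± 0.082.

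Receptors for chemokines moved both ways, 8 of 23 higher and 4 lower (5 and 3 without the pairing). These are 34.8% higher and 17.4% lower, against 9.73% and 18.1% of all genes, so the decreases were near the share of all genes. Ccrl2, an atypical receptor that binds chemerin, rose by 4.55 ± 0.17, whereas Cxcr4, which retains cells in bone marrow, had 9.06, 9.17 and 8.45 at 2 h, against 11.76, 10.44 and 10.12 in untreated cells. Cxcr4 was lower in every treated than in every untreated array and fell by 1.88 on the log2 scale (SE 0.22, adjusted p = 3.41e-05). Ccr1, a receptor of Ccl3 and Ccl5, fell by 1.53 on the log2 scale (SE 0.14).

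In antigen presentation, 10 of 15 MHC class I and immunoproteasome genes rose and 0 fell, with a median of 0.361. Nlrc5, the activator of class I genes, rose by 1.5 ± 0.17, the peptide transporter subunits Tap1 and Tap2 by 1.04 ± 0.11 and 0.81 ± 0.1, and the proteasome subunit Psmb10 by 0.795 ± 0.093. MHC class II depended on the pairing: 5 of 10 genes rose with it and 0 without it, 1 without culture 2 and 3 without culture 3. H2-Ab1 had 12.59, 11.47 and 9.35 at 2 h and 12.39, 10.47 and 8.49 untreated, so the cultures differed by more than LPS changed any of them (0.69 ± 0.18, adjusted p = 0.0113 and 0.681 without the pairing). Of 17 Fc and complement genes 4 rose and 1 fell (2 and 0 without the pairing, 2 and 1 without culture 3), and the complement factor Cfb rose most (2.61 ± 0.22). The shares were 23.5% higher and 5.88% lower, against 9.73% and 18.1% of all genes.

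The decreases were fewer at large size and included receptors, transcription factors and growth regulators. After Dusp6 the deepest were in Lpar6, a receptor for lysophosphatidic acid, with 8.65, 8.78 and 9.08 at 2 h, against 12.68, 11.82 and 11.98 in untreated cells (-3.32 ± 0.16, adjusted p = 1.18e-08). Cd300lb, an activating surface receptor of myeloid cells, fell by 2.99 and Cnr2, the cannabinoid receptor of immune cells, fell by 2.98 on the log2 scale (SE 0.25 and 0.14). The transcriptional repressor Bhlhe41 fell by 2.803, the dominant-negative helix-loop-helix factor Id1 by 2.38 and the haematopoietic factor Lyl1 by 2.21 on the log2 scale (SE 0.19, 0.16 and 0.11). The others among the 15 deepest were 1700017B05Rik, Arrdc3, Fam78a, Plk3, Sesn1, Pwwp2b and Zbtb1, at -2.61 to -2.26.

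Of 15 p53 target genes 7 fell and 2 rose (6 and 1 without the pairing), 5 of the 7 by 2-fold or more. With the pairing these are 46.7% lower and 13.3% higher, against 18.1% and 9.73% of all genes. The sign of the list's median turned with the setting: it was 0.062, but -0.31 without culture 3, -0.472 with dim genes left out and -0.024 with quantile normalization. Sesn1, a stress-induced inhibitor of mTORC1, had 7.902, 10.22 and 10.49 at 2 h, against 11.61, 11.99 and 12.27 in untreated cells. All cultures fell, culture 1 by far the most, with a mean of -2.42 ± 0.29 (adjusted p = 3.95e-05). The kinase Plk3 fell by 2.43, Trp53inp1 by 1.51 and Sesn2 by 1.48 on the log2 scale (SE 0.25, 0.17 and 0.2).

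Calls of cell cycle genes depended on the pairing: 23 of 40 fell and 1 rose with the pairing, with a median of -0.474, while 4 fell without it and 6 with culture as a random term. With the pairing these are 57.5% lower and 2.5% higher, against 18.1% and 9.73% of all genes. Among all 19475 genes 1950 fell without the pairing and 3118 with the random term, so there the list was near the share of all genes. Without culture 1, whose cell cycle signal was far lower, 27 fell. Cdt1, which licenses replication origins, passed either way: it had 8.94, 9.67 and 9.56 at 2 h, against 11.27, 11.07 and 11.29 in untreated cells, a difference of -1.81 ± 0.17 (adjusted p = 6.34e-06). The S phase factor E2f2 fell by 1.4 and cyclin D1 (Ccnd1) by 0.97 on the log2 scale (SE 0.12 and 0.202). Mki67 did not pass, with 11.61, 13.01 and 12.85 at 2 h and 8.97, 13.14 and 12.902 untreated, where culture 1 moved apart from the others.

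Of 34 macrophage identity genes 2 rose and 8 fell (1 and 3 without the pairing, 1 and 12 with quantile normalization), or 5.88% higher and 23.5% lower, near the 9.73% and 18.1% of all genes. Cebpa, a lineage transcription factor, had 8.69, 8.86 and 8.58 at 2 h, against 10.28, 9.88 and 9.73 in untreated cells, a difference of -1.25 ± 0.14 (adjusted p = 2.88e-05). Maf, another such factor, fell by 0.97 on the log2 scale (SE 0.14), and Fcgr2b, the inhibitory Fc receptor, rose by 1.24 ± 0.089. Mertk, a receptor for dying cells, was at -0.93 ± 0.26 and passed with the pairing (adjusted p = 0.0163) but not without it (0.179) or without culture 2.

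Of 19 sterol synthesis and uptake genes 10 fell and 0 rose, with a median of -0.321, or 52.6% lower against 18.1% of all genes. However, 2 of the 19 fell without the pairing, 3 without culture 1 and 6 with centred or quantile-normalized arrays. Among all 19475 genes 1950 fell without the pairing and 2511 without culture 1, so in these 2 settings the list was near the share of all genes. Dhcr7, the last enzyme of cholesterol synthesis, had 8.43, 9.604 and 9.48 at 2 h, against 9.69, 10.195 and 10.05 in untreated cells (-0.81 ± 0.14, adjusted p = 0.000874 and 0.0685 without the pairing). Of 22 glycolysis and hypoxia genes 8 rose and 4 fell, the decreases at the share of all genes (4 and 0 without the pairing, 7 and 2 without culture 1). Pfkfb3, which makes the activator of phosphofructokinase, rose by 1.69 ± 0.23 and the glucose transporter Slc2a6 by 1.47 ± 0.077. Of 16 LXR target and lipid efflux genes 1 rose and 3 fell (0 and 1 without the pairing, 0 and 4 without culture 3). Their shares of 6.25% higher and 18.8% lower were near those of all genes, 9.73% and 18.1%. The stress genes Ppp1r15a (GADD34), which restarts translation, and Hspa1a, a heat shock protein, rose by 2.51 ± 0.22 and 2.31 ± 0.21. Their list of 25 had 4 higher and 6 lower (3 and 4 without the pairing, 4 and 9 with quantile normalization). In the main fit its decreases were near the 18.1% of all genes, and its increases were above the 9.73%. Of 20 metallothionein and zinc transporter genes 5 rose and 2 fell (1 and 2 without the pairing, 3 and 1 without culture 1). With the pairing the increases were above the 9.73% of all genes and the decreases below the 18.1%. Without the pairing 1083 of all 19475 genes rose and 1950 fell, and the list was near these shares.

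Kmt2b, the gene the mice lack in 1 copy, was measured with its enzyme family. Kmt2b (Wbp7) had 10.69, 10.97 and 10.33 at 2 h and 10.97, 10.49 and 10.51 in untreated cells, with overlapping groups and a difference of 0.005 ± 0.14 (adjusted p = 0.985). Among 20 H3K4 methyltransferase and demethylase genes 1 rose and 4 fell (1 and 3 without the pairing, 2 and 2 without culture 1, 1 and 7 without culture 2, 2 and 5 without culture 3). The shares of 5.0% higher and 20.0% lower were near the 9.73% and 18.1% of all genes. The one that rose, Kdm6b, and Kdm6a, which fell, are demethylases for lysine 27 of histone H3 rather than lysine 4. Kdm6b had 11.53, 11.71 and 10.86 at 2 h, against 9.56, 8.598 and 8.67 in untreated cells (2.42 ± 0.18, adjusted p = 8.35e-07). Kdm2b and the complex subunit Rbbp5 fell by 0.76 and 0.66 on the log2 scale (SE 0.097 and 0.091).

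GPI anchor synthesis attaches proteins such as Cd14 to the membrane. Of its 28 genes 2 rose and 8 fell, with a median of -0.21, or 7.14% higher and 28.6% lower against 9.73% and 18.1% of all genes (1 and 2 without the pairing, 1 and 4 without culture 1, 2 and 5 without culture 3). Pigv, a mannosyltransferase of the pathway, had 11.03, 10.25 and 10.04 at 2 h, against 9.202, 9.02 and 8.82 in untreated cells, without overlap (1.42 ± 0.12, adjusted p = 1.77e-06). Pigp, a subunit of the first enzyme, had 9.21, 9.01 and 9.15 at 2 h and 8.98, 8.93 and 9.07 untreated and did not pass (0.13 ± 0.091, adjusted p = 0.319), while Pigh, another subunit, fell by 0.67 on the log2 scale (SE 0.104).

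**Figure D3:**
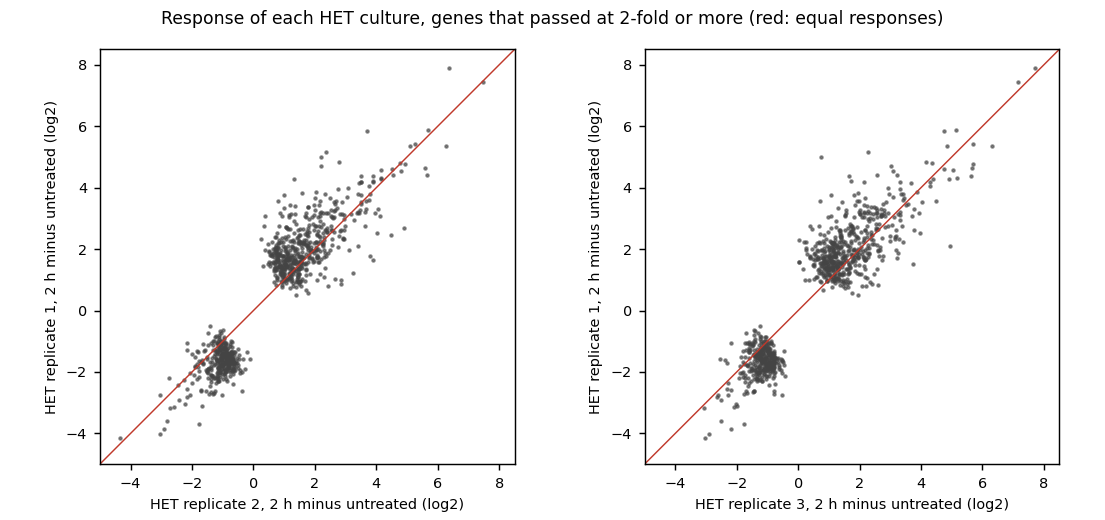
Log2 difference between 2 h of LPS and untreated in HET culture 1 (vertical) against culture 2 (left) and culture 3 (right), a point for each of the 848 genes that changed 2-fold or more, with a red line where both cultures respond equally. Points lie in the same quadrants in all cultures, which the paired test that chose these genes favours. Of these genes 559 have their largest response in culture 1, against 126 in culture 2 and 163 in culture 3. The genes were chosen by the mean of the same responses, so these counts draw on the values that chose them.

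The 4 h arrays of the same cultures show how far the 2 h pattern was early. Against 2 h, 1508 genes (7.74%) were higher at 4 h and 2142 (11.0%) lower, 740 and 854 without the pairing and 953 and 1247 without culture 2. Of the 519 genes that rose 2-fold at 2 h, 166 were higher still at 4 h and 68 lower, and of the 329 that fell, 26 were higher and 110 lower. The differences at 2 h and at 4 h from untreated cells share the untreated arrays, and the 4 h against 2 h test shares the 2 h arrays, so the counts are not independent.

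Some early genes were past their highest measured level by 4 h. Ifnb1 averaged 6.21 ± 0.22 untreated, 9.09 ± 0.63 at 2 h and 7.64 ± 0.28 at 4 h (SD, n = 3 each), and was lower at 4 h than at 2 h by limma (-1.44, adjusted p = 0.000926). Egr2 and Cxcl1 were also lower at 4 h (-1.93 and -1.74), and so was the histone demethylase Kdm6b (-0.89, adjusted p = 0.00416, lost without the pairing). Fos was higher at 4 h than at 2 h (1.29, adjusted p = 0.000499), as was Dusp6 (1.43, adjusted p = 0.00814). The Dusp6 call was lost without the pairing, without culture 2 and with the 9 HET arrays alone.

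Other genes were higher still at 4 h. Gbp4 averaged 6.81 ± 0.75 untreated, 9.14 ± 1.66 at 2 h and 12.41 ± 0.65 at 4 h (SD, n = 3 each), and was higher at 4 h than at 2 h (3.27, adjusted p = 5.39e-05). Its 2 h values were far apart, with 11.04, 7.96 and 8.42, culture 1 being ahead. Nos2 and Cfb rose further (1.52 and 1.91), while Il1a and Tnf did not pass between 2 h and 4 h (0.26 and -0.25, adjusted p = 0.303 and 0.172). Of the GBP and IRG genes 7 of 8 were higher at 4 h than at 2 h, and of the antiviral genes 33 of 50 (12 without the pairing). Ribosome biogenesis had 2 of 25 genes higher and 2 lower at 2 h (0 fell without the pairing, 5 without culture 2), or 8.0% each against 9.73% and 18.1% of all genes. It had 21 of 25 lower at 4 h than at 2 h, 19 without the pairing and 16 with the 9 HET arrays alone. Sterol genes followed with 14 of 19 lower (10 without the pairing, 9 without culture 2, 7 with the 9 HET arrays alone). Of all genes 11.0% were lower at 4 h than at 2 h in the main fit.

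**Figure D4:**
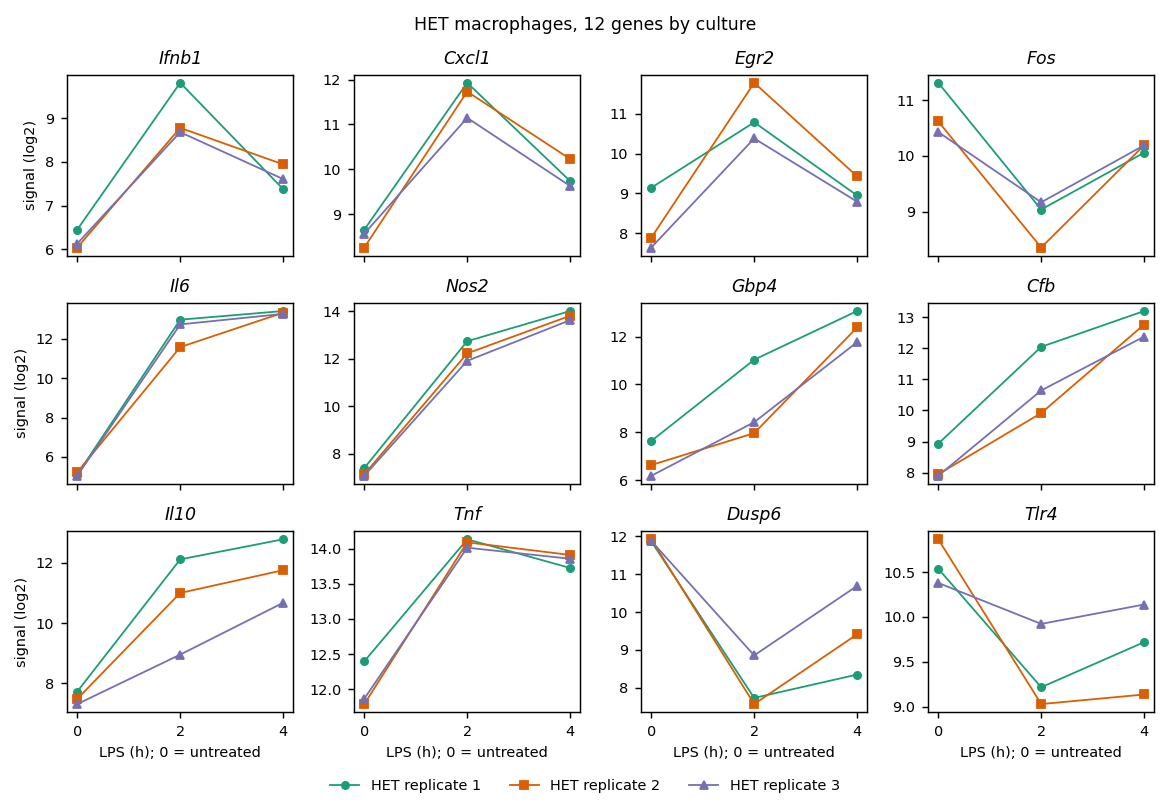
Log2 signal of 12 genes in untreated HET cells (0 h) and after 2 h and 4 h of LPS, a line per culture. Ifnb1, Cxcl1 and Egr2 are highest at 2 h in each culture, Fos and Dusp6 are lowest at 2 h, and Gbp4, Cfb and Nos2 are highest at 4 h.

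The 2 h response differed between HET and KO cells for a few genes when the difference itself was tested. The HET response was higher than the KO response for 22 genes (0.113% of those tested) and lower for 9 (0.0462%). Without the pairing both counts were 0 (1099 genes had an unadjusted p under 0.05), and they were also 0 without KO culture 1 or without KO culture 2. Without HET culture 1 or 3 they were 6 and 1, without HET culture 2 they were 200 and 161, and without KO culture 3 they were 4 and 0. The untreated and treated cells of each genotype are separate arrays here, so the comparison shares none.

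Of the 31 genes, 21 fall under the rule for naming genes, and among those Il6 had the largest difference. Its response was 7.89, 6.37 and 7.71 in HET cultures 1, 2 and 3, against 4.63, 4.36 and 4.73 in KO cultures, a difference of 2.75 (SE 0.36, adjusted p = 0.0152). Ifnb1 responded by 3.35, 2.73 and 2.55 in HET cultures, against 0.801, 0.75 and 0.42 in KO cultures (2.22, SE 0.33, adjusted p = 0.0253). Fos fell in HET cultures by more, with responses of -2.28, -2.26 and -1.26, against -0.36, -0.51 and -0.069 in KO cultures (-1.62, SE 0.27, adjusted p = 0.0409). The HET and KO responses of these 3 genes did not overlap, but the genes were chosen by a test on these same responses. Responses did not overlap either in genes that did not pass, such as Socs3 and Ptgs2. Nos2, Cxcl11, Tnfsf15 and Gbp5 also had higher responses in HET (1.56, 1.43, 1.64 and 1.04). Tnf, Il1b, Nfkbia and Cd14 did not pass, at -0.15, 0.23, -0.016 and 0.15 (SE 0.17, 0.27, 0.14 and 0.13). These genes were bright in HET cells at 2 h, Tnf close to the highest signal of the arrays. Differences there may be understated, which was not tested. By list, the median response was 2.44 in HET and 1.00 in KO for the GBP genes, 1.57 and 0.803 for cytokines and 1.97 and 1.68 for the NF-kB genes, and these list differences were not tested.

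**Figure D5:**
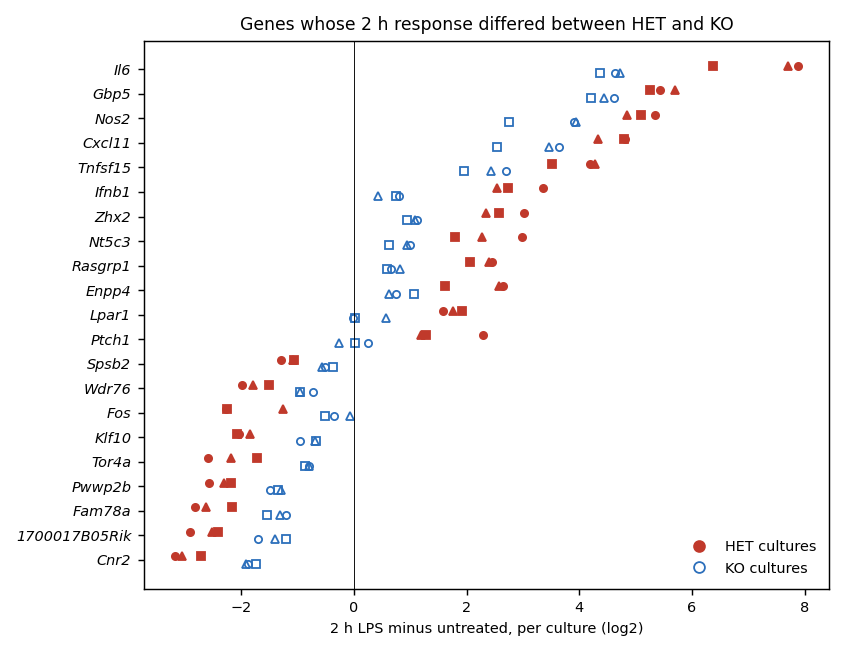
Log2 difference between 2 h of LPS and untreated in each HET culture (filled red) and each KO culture (open blue) for the 21 named genes whose response differed between the genotypes. HET and KO responses do not overlap in any of the 21, which were chosen by a test on these same responses. Il6 has the largest difference of means (7.32 in HET and 4.57 in KO).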

How the data were processed

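RNA of mouse macrophages was hybridised to 18 Affymetrix arrays, of which the 6 arrays of HET cells untreated or given LPS for 2 h are the subject. Deposited values are log2 signals per probe set, which the authors made by RMA, a background correction, quantile normalization and probe summary, in Partek 6.5, per the submitters' processing notes. Array medians were 8.05 to 8.13. Scanner output was not analysed here, so which genes were below background or saturated is unknown.

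Of 25344 probe sets, 21137 had 1 gene symbol in GEO's platform annotation, 1530 several and 2677 none. Those with 1 symbol gave 19475 genes, and where a gene had more than 1 (915 genes), the probe set of highest mean was used. limma 3.58.1 in R 4.3.3 (lmFit, eBayes) was fitted on all 18 arrays with 6 groups and a term for culture (genotype and replicate number), leaving 8 residual degrees of freedom plus 4.83 prior ones. Benjamini-Hochberg adjustment ran over the 19475 genes at 0.05, and 2-fold is a log2 difference of 1. Plots used matplotlib 3.10.9 and tables pandas 2.3.3 in Python 3.11.15. The fit was tested on simulated data.

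Arrays were paired by replicate number, as the comparison was set up. As a check, the 2 h and untreated HET arrays of the same number deviated from their group means together (r across genes 0.762, 0.573 and 0.686). The other pairs had r of -0.647 to -0.521 with replicate 1 and 0.234 and 0.242 between replicates 2 and 3. Deviations within a group cancel out, which lowers r for the other pairs. The pairing rests on the replicate numbers in the titles, since the labels do not state that such arrays share a culture. Alternatives were no pairing, culture as a random term, arrays centred or quantile-normalized, dim genes (mean under 7.63, the lowest 40%) left out, averaged probe sets, a robust prior with a trend in intensity, weights per array, the 9 or 6 HET arrays alone and leaving out each replicate.

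Genes named are the 20 highest and 15 lowest called differences with 1 sign in all cultures, up to 4 called members and 1 uncalled member of largest change per list, Tlr4, Cd14, Ly96, Tnf, Il1b, Il6, Il10, Ifnb1, Cxcl10, Nfkbia, Kmt2b and Pigp, and the 10 largest called changes per direction between 4 h and 2 h and between HET and KO responses that were also called at 2 h. Members and lists were chosen with earlier results of these data known. Promoters come from RefSeq on GRCm38.p6, for up to 6 of the highest genes, of which those with a motif match are printed. List members without a probe set of their own were not analysed here.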

Additional observations from a re-analysis of the deposited data

Results flagged for a closer look

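The 2 h response differed between HET and KO cells, by limma's test of the difference, for 21 of the named genes. The values are log2 differences, the HET response minus the KO response. For each gene the 3 HET and 3 KO responses did not overlap, which adds no support, since the test that chose the genes used these same responses. Among inflammatory genes the HET response was higher for Il6 by 2.75, Ifnb1 by 2.22, Tnfsf15 by 1.64, Nos2 by 1.56, Cxcl11 by 1.43 and Gbp5 by 1.04. It was also higher for Rasgrp1, a Ras activator, by 1.61, for Zhx2 by 1.60, for the Hedgehog receptor Ptch1 by 1.59, for the lysophosphatidic acid receptor Lpar1 by 1.57, for Nt5c3 by 1.497 and for Enpp4 by 1.47.

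Among genes with lower values in HET, the difference was -1.62 for Fos, -1.35 for Tor4a, -1.21 for the repressor Klf10, -1.18 for Fam78a, -1.17 for 1700017B05Rik, -1.13 for Cnr2, -0.97 for Pwwp2b, -0.89 for Wdr76 and -0.66 for Spsb2. All these calls were lost without the pairing and without KO culture 1 or 2.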

How the results depend on the processing

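Without the replicate block, 1083 genes were higher and 1950 lower at 2 h (1895 and 3516 with it), 740 were higher and 854 lower at 4 h than at 2 h (1508 and 2142 with it), and 0 and 0 differed in response between HET and KO (22 and 9 with it). With the 6 HET arrays alone 1152 were higher and 2125 lower at 2 h, and with the 9 HET arrays alone 892 were higher and 1051 lower at 4 h than at 2 h. Leaving out 1 culture at a time gave 1348 to 1663 higher and 2511 to 3252 lower at 2 h, 440 to 580 and 228 to 446 at 2-fold, and 953 to 1397 higher and 1247 to 2473 lower between 4 h and 2 h, with the lowest between times without culture 2. For the difference in response it gave 0 to 200 higher and 0 to 161 lower. Array weights gave 65 higher and 53 lower responses, and centred or quantile-normalized arrays gave 4 lower ones. The cause of these shifts was not tested, apart from fewer arrays entering some fits.

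Of the 192 named genes 162 passed at 2 h, and 128 of them passed under every alternative in which they were tested, while 0 changed sign among those called. Lost calls included those of MHC class II genes such as H2-Ab1 and of sterol genes such as Dhcr7. Of the 91 named genes that passed between 4 h and 2 h, 45 did so under every alternative. With 3 cultures per group, 1 of which stands apart, and signals near the floor or top of the arrays, the size of the largest folds and small differences of dim genes are uncertain.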
